A study of Mus musculus with 34 samples.

Results

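Mouse liver samples labelled as induced with skip2, an exon-skipped form of beta-catenin, were compared with livers labelled as carrying the skip2 isoform alone. The comparison holds 4 RNA-seq libraries of the 34 in the series, 2 skip2 induced samples and 2 livers with skip2 alone, which were chosen by their source label and are all those analysed here that carry it. Per the title of the series, CRISPR was used to make the exon skipping. Per the labels, the cancer model was made by hydrodynamic injection, a rapid injection of a large volume into the bloodstream that takes DNA into hepatocytes, and the RNA came from frozen liver tumours, wording that every sample shares, wild type included. The source label says skip 2 for all 4 samples while another field of the same samples says skip 1, and the source label was followed. The exon that was skipped, whatever else the induced samples received, the strain, sex, age and time after injection are not given in the labels. They also do not say that the libraries came from separate animals. Every p-value therefore rests only on the spread between libraries within the groups of the fit described below, which may be technical. Skip2 induced replicates 1 and 2 and skip2 alone replicates 1 and 2 are numbered in accession order and form no pairs.

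Beta-catenin is the protein that carries a Wnt signal into the nucleus, where it acts with TCF and LEF factors, and it also links cadherins to the actin cytoskeleton at cell contacts. A complex built on the scaffolds Apc and Axin marks the amino-terminal part of the protein for destruction when no Wnt signal is present, and forms that escape this mark are a frequent cause of liver tumours. In the healthy liver the pathway is active in hepatocytes around the central vein, where it maintains genes such as Glul, while hepatocytes around the portal vein express genes of urea and glucose production. The deposited values are summed over all transcripts of a gene, so they do not tell the skipped form from the full-length one.

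Values are the authors' normalized counts. Differences are skip2 induced minus skip2 alone on the log2(value + 1) scale, which understates the change of low genes, and adjusted p-values are from limma with Benjamini-Hochberg adjustment over the 6592 genes whose normalized count averaged at least 10 in the table's 18 libraries. A gene was called at an adjusted p under 0.05. The fit also held 5 skip1 induced samples, 4 induced samples labelled dN90, 3 livers with the skip1 isoform alone and 2 wild type livers, which share its estimate of the spread. The estimated number of reads was 933146 and 815419 in skip2 induced samples, against 600418 and 505883 with skip2 alone, so the groups did not overlap in depth, and all these libraries are shallow. Of 14086 genes in the table, 592 and 714 were listed at 0 in skip2 induced samples, against 2004 and 2306 with skip2 alone. The normalized values summed to 428990 and 485745 in skip2 induced samples, against 694092 and 694773 with skip2 alone. Rn45s, the ribosomal RNA precursor, stood at 2140.0 and 1809.7 in skip2 induced samples, against 301 and 806 with skip2 alone. Neat1, a nuclear RNA, stood at 131 and 70.5 in skip2 induced samples, against 14.9 and 29.5 with skip2 alone. The part of these 2 transcripts in the results was not tested; with depth as a covariate 767 genes were called, of which 609 were among the 985 named next.

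Of the 6592 genes, 985 (14.9%) were called, 430 higher (6.52%) and 555 lower (8.42%) in skip2 induced samples. All 985 had both skip2 induced values on one side of both values with skip2 alone. Without regard to the test, 1801 genes (27.3%) had both skip2 induced values above and 2147 (32.6%) both below, and an exact permutation test of 2 against 2 libraries cannot give a p under 0.333. The median difference over all genes was -0.06. The genes called higher were led by Gpc3, H19, Emp2 and Bicc1, and those called lower by the major urinary protein genes, the acute-phase genes Saa1 and Saa2 and the male-biased steroid enzyme gene Hsd3b5. With single libraries left out, the genes named by rule kept a median of 94.0% to 106% of their differences, while the number of calls fell. It was 346 without skip2 induced replicate 1, 788 without skip2 induced replicate 2, 508 without skip2 alone replicate 1 and 576 without skip2 alone replicate 2, where the lone library is assumed to vary like those of the other groups. The split also moved with the scaling, to 554 higher and 410 lower with upper-quartile scaling, in which the median of all genes stood at 0.11, 436 and 341 with quantile normalization, and 1374 and 249 with voom on estimated reads, a fit in which the median of all genes stood at 0.53.

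**Figure D1:**
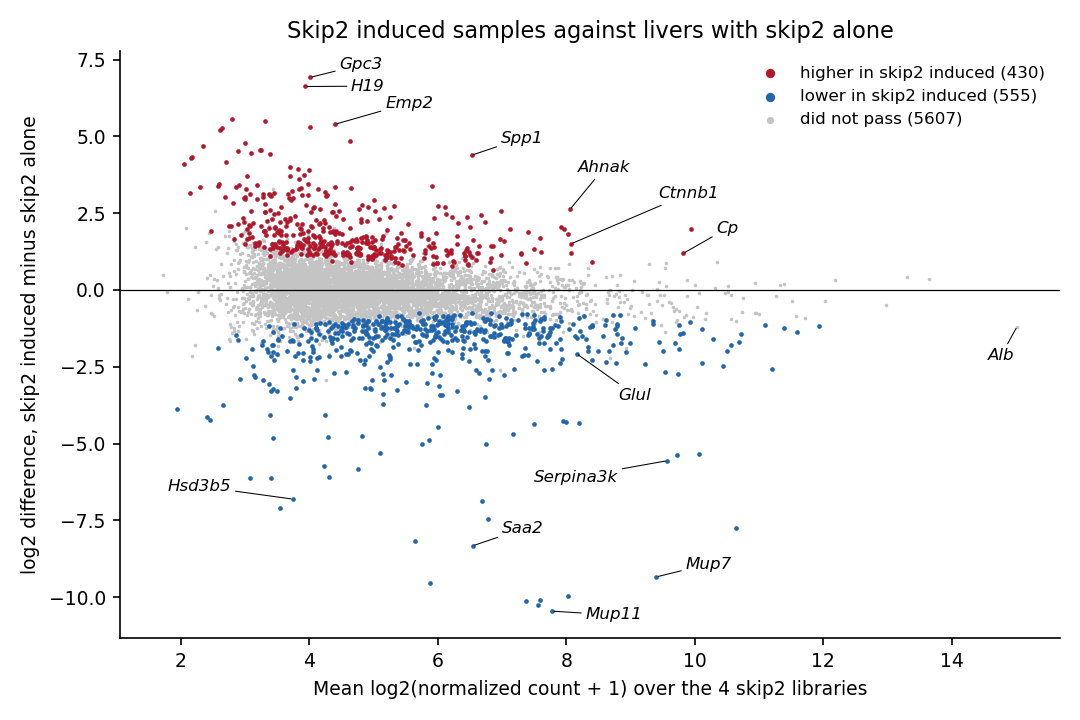
Each point is 1 of 6592 genes, with its mean log2(normalized count + 1) over the 4 skip2 libraries on the horizontal axis and its log2 difference, skip2 induced minus skip2 alone, on the vertical axis. The 430 genes called higher are red, the 555 called lower blue and the 5607 others grey, and the lowest point, a major urinary protein gene, lies at -10.46.

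Ctnnb1, the gene for beta-catenin itself (chromosome 9, 120929216 to 120960507, mm10), stood at 444 and 457 in skip2 induced samples, against 177 and 143 with skip2 alone and 128 and 148 in wild type liver. The induced values lay above both others by a wide margin and close to each other, and the difference from skip2 alone was 1.497 (SE 0.30, limma adjusted p = 0.00173), or 2.82-fold on the log2(value + 1) scale. Over all genes tested, 6.52% were called higher. In the list of beta-catenin and its destruction complex, 9 of 11 genes passed the filter on low values, 3 were higher, 0 were lower and the median was 0.66. The other 2 called members bind beta-catenin or take its place at cell contacts. Ctnna1, alpha-catenin, stood at 144 and 147 in skip2 induced samples, against 98.3 and 85.1 with skip2 alone (difference 0.66, limma adjusted p = 0.0474). Jup, plakoglobin, stood at 39.5 and 54.2 in skip2 induced samples, against 15.03 and 28.8 with skip2 alone (1.11, limma adjusted p = 0.045). Without any 1 of the 4 libraries the call of Ctnna1 was lost, and that of Jup was kept only without skip2 alone replicate 2, while that of Ctnnb1 was kept in each case.

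Among genes that Wnt signalling raises as part of its own feedback, 7 of the 11 in the table passed the filter, 2 were higher, 0 were lower and the median was 1.13. Over all genes tested, 6.52% were called higher. With no filter on low values, 2 of the 11 were higher, 0 were lower and the median was 0.60. Ccnd1, the cyclin that drives entry into the cell cycle, stood at 216 and 141 in skip2 induced samples, against 28.9 and 23.3 with skip2 alone, and Tnfrsf19, a receptor of the tumour necrosis factor family, at 41.5 and 33.0 in skip2 induced samples, against 2.37 and 5.64 with skip2 alone. Like all 985 called genes, neither overlapped between the groups. The differences were 2.70 (SE 0.42, limma adjusted p = 0.000154) and 3.01 (SE 0.62, limma adjusted p = 0.0024). Axin2, the scaffold that is the most widely used readout of the pathway, stood at 17.9 and 11.9 in skip2 induced samples, against 2.31 and 4.12 with skip2 alone, a difference of 1.92 that just missed the threshold (limma adjusted p = 0.050005). Lgr5, a receptor that amplifies the signal, did not pass the filter, at 7.36 and 11.9 in skip2 induced samples, against 2.31 and 4.12 with skip2 alone.

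Glul, which encodes glutamine synthetase and marks the hepatocytes next to the central vein (chromosome 1, 153899944 to 153909723), was lower, the opposite of Ctnnb1. It stood at 109.9 and 175 in skip2 induced samples, against 546 and 636 with skip2 alone and at 543 and 561 in wild type liver, a difference from skip2 alone of -2.08 (SE 0.66, limma adjusted p = 0.0374). Both induced values lay well below all the others, but the call was lost without any 1 of the 4 libraries, when the difference ran from -2.41 to -1.75, and against wild type liver (limma adjusted p = 0.0507). Of 18 pericentral genes that passed the filter, 1 was higher and 10 were lower, with a median of -1.13. Slc1a2, a glutamate transporter, stood at 17.6 and 33.0 in skip2 induced samples, against 224 and 266 with skip2 alone (-3.28, limma adjusted p = 0.00883). Oat, ornithine aminotransferase, stood at 71.3 and 89.95 in skip2 induced samples, against 584 and 424 with skip2 alone (-2.62, adjusted p = 0.00685). The cytochrome gene Cyp1a2 stood at 36.8 and 93.5 in skip2 induced samples, against 338 and 376 with skip2 alone (-2.58, limma adjusted p = 0.00238), with the lower of the induced values in replicate 1. Cyp2e1, the most used pericentral cytochrome marker, was at 3314 and 4095 in skip2 induced samples, against 5172 and 4376 with skip2 alone and was not called (-0.37, limma adjusted p = 0.55). With single libraries left out the median ran from -1.27 to -1.03, while the count of 10 lower fell. It was 0 without skip2 induced replicate 1, with a median of -1.07, 2 without skip2 alone replicate 1, 3 without skip2 alone replicate 2, and 5 with quantile normalization or voom.

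The largest increases were in genes of fetal liver. Gpc3 encodes glypican-3, a heparan sulfate proteoglycan of the fetal liver and of many hepatocellular carcinomas (chromosome X, 52272426 to 52613950). It stood at 192 and 163 in skip2 induced samples, against 1.16 and 0 with skip2 alone and at 1.13 and 0 in wild type liver, a difference of 6.92 (SE 0.49, limma adjusted p = 1.63e-08). H19, an imprinted RNA that codes for no protein (chromosome 7, 142575529 to 142578143), stood at 196 and 116 in skip2 induced samples, against 0 and 1.37 with skip2 alone and at 1.13 and 0 in wild type liver (6.62, SE 0.87, limma adjusted p = 2.67e-05). Both genes were near 0 in the livers with skip2 alone and in wild type liver, and above 100 in both induced samples. Of the 16 oncofetal and progenitor genes in the table, 5 passed the filter, 3 were higher and 0 lower, with a median of 3.62 over the 5. With no filter on low values the median over all 16 was 1.12, and 5 were higher. The other called member was Scd2, a fatty acid desaturase, at 40.0 and 60.8 in skip2 induced samples, against 3.47 and 2.75 with skip2 alone (3.62, limma adjusted p = 0.00229). Afp, the fetal albumin-like protein used as a liver cancer marker, did not pass the filter and was no higher in the induced samples, at 4.14 and 2.38 in skip2 induced samples, against 9.25 and 6.87 with skip2 alone. Igf2, the growth factor gene beside H19, was also below the filter, at 1.6 and 5.06 in skip2 induced samples, against 0 and 0 with skip2 alone.

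The promoters of Gpc3 and Emp2 are shown because these genes had the largest increases among the genes named by rule with a promoter in the RefSeq table (GRCm38.p6, the mm10 assembly). Each run has 250 bases before and 50 after the start of the gene, read 5′ to 3′ on the minus strand, from chrX:52613925-52614224 for Gpc3 and chr16:10313919-10314218 for Emp2. Capitals mark E2F motifs, searched as TTCCCGC and TTGGCGC on both strands, and the Gpc3 run holds TTCCCGC at bases 40 and 253, counted from its first base.
Gpc3: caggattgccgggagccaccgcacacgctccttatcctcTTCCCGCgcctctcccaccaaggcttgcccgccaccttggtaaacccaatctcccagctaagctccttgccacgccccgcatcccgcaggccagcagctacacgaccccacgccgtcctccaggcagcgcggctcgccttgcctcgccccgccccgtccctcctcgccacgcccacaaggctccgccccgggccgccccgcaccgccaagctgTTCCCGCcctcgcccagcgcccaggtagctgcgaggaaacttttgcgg
Emp2: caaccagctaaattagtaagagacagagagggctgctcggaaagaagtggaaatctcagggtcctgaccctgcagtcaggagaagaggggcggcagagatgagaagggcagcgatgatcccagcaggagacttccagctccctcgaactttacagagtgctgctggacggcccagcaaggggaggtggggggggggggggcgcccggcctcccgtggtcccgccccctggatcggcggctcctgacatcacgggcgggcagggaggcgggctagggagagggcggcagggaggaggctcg
The Emp2 run held no match to any of the motifs searched, which were E2F, the TEAD motif GGAATG, the TCF/LEF motif CTTTGAA, the cell cycle motif CHR, TTTGAA, whose letters lie within CTTTGAA, and the HNF1 half-site GTTAAT. An E2F match was found in 15.7% of 332 promoters of genes called higher, 9.17% of 436 of genes called lower, 11.7% of 5228 of genes tested and 6.93% of all 27025 promoters. The TEAD motif stood in 17.5%, 14.2%, 11.9% and 14.6% of these sets and the TCF/LEF motif in 1.81%, 5.73%, 3.81% and 5.27%. The CHR motif stood in 9.04%, 14.7%, 11.6% and 18.1% and the HNF1 half-site in 4.22%, 8.49%, 4.69% and 7.2%. These shares are descriptions, and a match is not a bound site.

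Emp2, a tetraspan membrane protein gene (chromosome 16, 10281749 to 10313968), stood at 125 and 148 in skip2 induced samples, against 3.47 and 1.37 with skip2 alone, a difference of 5.39 (SE 0.46, limma adjusted p = 1.87e-07). D17H6S56E-5, a transcript without a named function in the files, stood at 146 and 119.7 in skip2 induced samples, against 2.31 and 5.49 with skip2 alone (4.85, SE 0.66, limma adjusted p = 3.82e-05). Eppk1, the cytoskeletal linker epiplakin, stood at 275 and 348 in skip2 induced samples, against 39.3 and 65.9 with skip2 alone (2.58, limma adjusted p = 0.000105). Like all 985 called genes, none of the 3 overlapped between the groups, and each was also called against wild type liver.

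The insulin-like growth factor axis was mixed. Of 11 genes that passed the filter, 3 were higher and 1 lower, with a median of 0.28, beside 6.52% and 8.42% of all genes tested. Igfbp2, a binding protein that holds these growth factors in the circulation (chromosome 1, 72824503 to 72852474), stood at 157 and 182 in skip2 induced samples, against 32.1 and 40.9 with skip2 alone and at 53.6 and 72.6 in wild type liver (2.19, SE 0.45, limma adjusted p = 0.00239). Irs1, the adaptor of the insulin receptor, stood at 45.1 and 53.6 in skip2 induced samples, against 15.03 and 17.9 with skip2 alone (1.53, adjusted p = 0.00444 in limma). Igfbp7, another binding protein, stood at 66.3 and 62.0 in skip2 induced samples, against 27.8 and 20.6 with skip2 alone (1.38, limma adjusted p = 0.00612), a call lost without skip2 induced replicate 1 and without skip2 alone replicate 2. Ghr, the growth hormone receptor, was the 1 lower member, at 67.0 and 96.9 in skip2 induced samples, against 396 and 318 with skip2 alone (-2.12, SE 0.36, limma adjusted p = 0.000397).

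Genes of bile duct cells and of the Notch pathway, which directs liver progenitors towards the bile duct, were higher where they could be tested. All 8 that passed the filter of 16 in the table were called higher and their median was 1.93, and 8 more were too low to be tested. The filter averages over all 18 libraries, induced ones included, so a gene low with skip2 alone can pass through its induced values. The count of 8 of 8 is therefore not independent of the filter, and the same limit holds for the other lists. Spp1, osteopontin, stood at 456 and 388 in skip2 induced samples, against 26.6 and 13.7 with skip2 alone (4.39, SE 0.69, limma adjusted p = 0.000185). Bicc1, an RNA-binding protein gene of ducts and cysts, stood at 110.1 and 91.5 in skip2 induced samples, against 0 and 5.52 with skip2 alone (5.31, SE 0.63, adjusted p = 1.08e-05). Pkhd1, the fibrocystin gene of cilia in duct cells, stood at 64.8 and 68.5 in skip2 induced samples, against 10.4 and 9.61 with skip2 alone (2.62). Krt18, a keratin of hepatocytes and duct cells alike, stood at 269.9 and 279 in skip2 induced samples, against 61.3 and 78.3 with skip2 alone (1.97, limma adjusted p = 0.000106). The defining duct keratin Krt19 was close to 0 in all 4 libraries, at 0.582 and 0.973 in skip2 induced samples, against 0 and 0 with skip2 alone, and so was Krt7, at 0.46 and 0.596 in skip2 induced samples, against 0 and 0 with skip2 alone. Epcam, another defining marker of duct cells, stood at 0.919 and 1.19 in skip2 induced samples, against 1.16 and 0 with skip2 alone, and the duct and progenitor factor gene Sox9 at 6.9 and 5.96 in skip2 induced samples, against 0 and 0 with skip2 alone.

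Targets of YAP and TEAD, the pair of factors that the Hippo pathway restrains, gave 8 higher and 0 lower of 13 that passed the filter, with a median of 1.52. Ajuba, a scaffold that binds the Hippo kinases, stood at 57.9 and 35.1 in skip2 induced samples, against 2.31 and 5.49 with skip2 alone (3.31, SE 0.65, limma adjusted p = 0.0016). The secreted matrix protein gene Ccn1 stood at 53.3 and 35.7 in skip2 induced samples, against 4.62 and 2.75 with skip2 alone (3.28, SE 0.51, adjusted p = 0.00017). Myof, the membrane repair protein myoferlin, stood at 42.2 and 36.2 in skip2 induced samples, against 6.94 and 1.37 with skip2 alone (3.21). Ptpn14, a phosphatase that holds YAP in the cytoplasm, stood at 40.9 and 38.1 in skip2 induced samples, against 3.47 and 6.87 with skip2 alone (2.77, limma adjusted p = 0.000507). Like all 985 called genes, none of these overlapped between the groups. Yap1 itself differed by -0.02 (limma adjusted p = 0.981), at 32.9 and 40.0 in skip2 induced samples, against 41.3 and 32.7 with skip2 alone, with overlapping groups. Ccn2, the other widely used target, did not pass the filter, at 20.2 and 5.96 in skip2 induced samples, against 2.31 and 2.75 with skip2 alone. Without skip2 induced replicate 1 the count was 5 higher.

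Matrix genes were higher, among them genes of the basement membrane. Of 21 that passed the filter, 13 were higher and 0 lower, with a median of 1.86, and 8 of the 13 encode type IV collagens, laminins, nidogens or perlecan. Nid1, the linker nidogen-1, stood at 169 and 222 in skip2 induced samples, against 18.5 and 16.5 with skip2 alone (3.40, SE 0.37, limma adjusted p = 4.41e-06). The type IV collagen gene Col4a1 stood at 95.6 and 109 in skip2 induced samples, against 12.7 and 16.5 with skip2 alone (2.74, SE 0.55, adjusted p = 0.00189). The laminin gene Lama5 stood at 51.0 and 50.6 in skip2 induced samples, against 3.47 and 4.12 with skip2 alone (3.44, limma adjusted p = 0.00373). Lamb2, another laminin gene, stood at 46.9 and 42.9 in skip2 induced samples, against 0 and 2.75 with skip2 alone (4.57, adjusted p = 2.59e-05). The fibrillar collagens of scar tissue, which are on the list of stellate cell and fibroblast markers, were higher too. Col1a1 stood at 53.3 and 55.4 in skip2 induced samples, against 1.16 and 6.87 with skip2 alone (3.75, limma adjusted p = 0.000342). Col3a1 stood at 179 and 150.1 in skip2 induced samples, against 21.96 and 26.1 with skip2 alone (2.73, adjusted p = 5.12e-05). That list had 3 of 9 higher and 2 lower, with a median of -0.23, so the collagens do not stand for the list. Of the 9, 5 had both induced values below both others, against 32.6% of all genes tested, and 3 had both above, against 27.3%. The 2 lower were 0 without skip2 induced replicate 1 and without either replicate of skip2 alone, and 1 without skip2 induced replicate 2, while 3 were higher in each case. Its members summed to 527 and 477 in skip2 induced samples, against 367 and 364 with skip2 alone. Its defining markers of quiescent and activated stellate cells were low throughout. Lrat stood at 7.36 and 5.36 in skip2 induced samples, against 10.4 and 5.49 with skip2 alone, and Acta2 at 7.82 and 2.38 in skip2 induced samples, against 1.16 and 2.75 with skip2 alone. The part of these cells in the collagen values was not tested, and in bulk tissue fewer cells of a type and less RNA per cell cannot be told apart, here and for every gene group below.

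Genes of the cortical cytoskeleton, annexins and S100 proteins were also higher, and 14 of 27 that passed the filter were called so, 1 was lower and the median was 1.09. Tagln2, an actin-binding protein gene, stood at 61.1 and 50.6 in skip2 induced samples, against 5.78 and 5.49 with skip2 alone (3.09, SE 0.40, limma adjusted p = 2.08e-05). Anxa2, a membrane-binding annexin, stood at 70.3 and 75.7 in skip2 induced samples, against 6.94 and 13.7 with skip2 alone (2.77, limma adjusted p = 9.16e-05). Its relative Anxa5 stood at 164 and 164 in skip2 induced samples, against 31.2 and 26.1 with skip2 alone (2.48, SE 0.27, adjusted p = 4.51e-06). The giant scaffold gene Ahnak stood at 797 and 545 in skip2 induced samples, against 115 and 99.0 with skip2 alone (2.62, limma adjusted p = 2.08e-05). The lower member was S100a1, a calcium-binding protein gene, at 13.3 and 22.6 in skip2 induced samples, against 62.4 and 46.7 with skip2 alone (-1.58, limma adjusted p = 0.0162), a call lost without skip2 induced replicate 1 and without skip2 alone replicate 1. Without skip2 induced replicate 1 the count was 9 higher.

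The cell cycle was seen through few genes, because 22 of the 36 listed did not pass the filter. Of the 14 that did, 6 were higher, 1 was lower and the median was 1.6. Mki67, the proliferation antigen Ki-67, stood at 53.3 and 33.4 in skip2 induced samples, against 5.78 and 2.75 with skip2 alone and at 2.27 and 3.32 in wild type liver (3.10, SE 0.62, limma adjusted p = 0.00182). Top2a, the topoisomerase of dividing cells, stood at 29.0 and 20.3 in skip2 induced samples, against 3.47 and 1.37 with skip2 alone (2.95, limma adjusted p = 0.00397). Cdkn1a, the p21 inhibitor that stops the cycle, stood at 16.6 and 8.95 in skip2 induced samples, against 1.16 and 0 with skip2 alone (3.17, adjusted p = 0.0114 in limma). The lower member was Aurka, a mitotic kinase, at 9.65 and 11.9 in skip2 induced samples, against 35.8 and 33.0 with skip2 alone (-1.59, limma adjusted p = 0.00444). These levels are low, and the count moved to 2 higher without skip2 induced replicate 1, 3 without skip2 alone replicate 2, and 1 with depth as a covariate, when Mki67 stood at 2.18 and lost its call.

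Antigen presentation genes were higher in part, and of 17 that passed the filter, 6 were higher and 0 lower, with a median of 0.86. Of the 17 differences, 3 were negative, down to -0.97. The list summed to 2349 and 2924 in skip2 induced samples, against 2723 and 3073 with skip2 alone, so its sum was not higher. Class II molecules present peptides on macrophages, dendritic cells and B cells. The class II gene H2-Eb1 stood at 76.3 and 73.9 in skip2 induced samples, against 20.8 and 9.61 with skip2 alone (2.32, limma adjusted p = 0.00142). H2-Aa, another of them, stood at 55.2 and 44.1 in skip2 induced samples, against 17.3 and 12.4 with skip2 alone (1.68, adjusted p = 0.00415). The invariant chain gene Cd74 stood at 220.1 and 254 in skip2 induced samples, against 121 and 89.4 with skip2 alone (1.17, limma adjusted p = 0.025). The count of 6 was 1 without skip2 induced replicate 1, 3 without skip2 induced replicate 2 and 2 without skip2 alone replicate 1. Macrophage and Kupffer cell markers had 3 of 13 higher and 0 lower, and summed to 1040 and 972 in skip2 induced samples, against 654 and 574 with skip2 alone; 0 or 1 of them were called without any 1 library. The receptor gene Csf1r stood at 136 and 114 in skip2 induced samples, against 53.2 and 63.2 with skip2 alone (1.09, limma adjusted p = 0.00804). The Kupffer cell marker Clec4f was not called, at 66.2 and 73.3 in skip2 induced samples, against 90.2 and 90.6 with skip2 alone. No marker of neutrophils, B cells, T cells or NK cells passed the filter. Those of T and NK cells together summed to 7.81 and 4.17 in skip2 induced samples, against 1.16 and 4.12 with skip2 alone. Endothelial markers had 0 of 14 called by limma, with 4 at an unadjusted p under 0.05, and 5 called higher with voom. They summed to 543.3 and 519.9 in skip2 induced samples, against 561 and 512 with skip2 alone. The part of these cells in the class II values was not tested. Over all genes tested, 6.52% were called higher and 8.42% lower, the shares to set beside each count of this paragraph. Of 19 interferon-stimulated genes that passed the filter, 2 were higher and 0 lower, with a median of 0.30, too few to describe the group. One was Ifit2, which binds foreign RNA, at 20.1 and 23.5 in skip2 induced samples, against 2.33 and 1.39 with skip2 alone (3.01, limma adjusted p = 0.000443). The other was Ddx58, an RNA sensor gene, at 49.2 and 39.3 in skip2 induced samples, against 26.6 and 16.5 with skip2 alone (1.03, adjusted p = 0.044), a call kept only without skip2 alone replicate 1 when single libraries were left out.

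**Figure D2:**
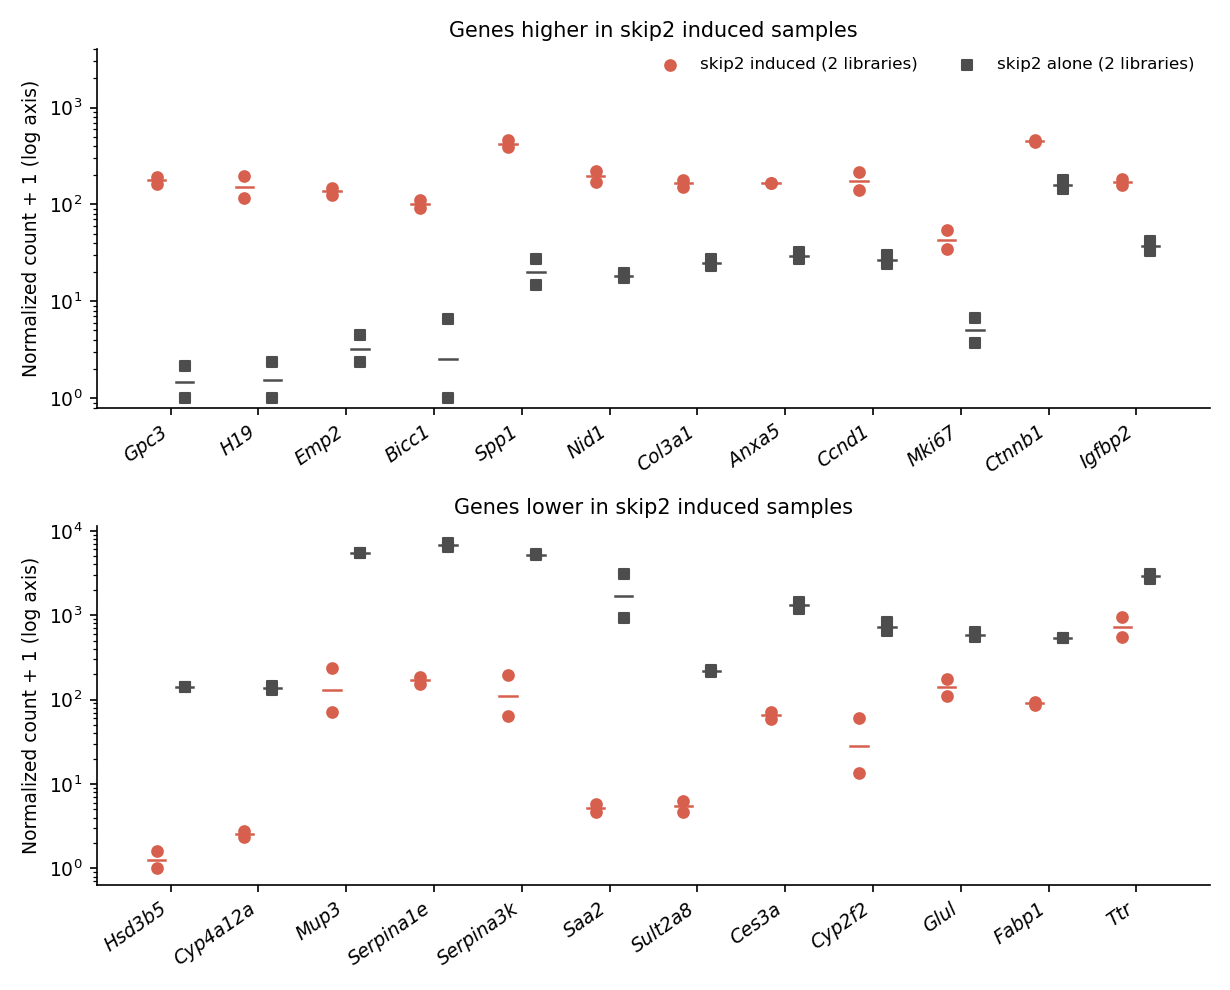
Normalized count + 1 of 12 genes higher (top) and 12 lower (bottom) in skip2 induced samples, on log axes, with each library as a point and the geometric mean of its group as a short line. In each of the 24 genes the 2 skip2 induced libraries (circles) lie on one side of the 2 livers with skip2 alone (squares), as in all 985 called genes.

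The largest losses were in the major urinary proteins, lipid-binding proteins that male mouse liver secretes in bulk and that growth hormone pulses keep high. All 16 of these genes that passed the filter, of 18 in the table, were lower and their median was -7.96. The normalized counts of all 18 summed to 2824 and 3305 in skip2 induced samples, 0.658% and 0.680% of the library total, against 90650 and 92693, or 13.1% and 13.3%, with skip2 alone. Mup11 (chromosome 4, 60658466 to 60662411) stood at 0 and 33.4 in skip2 induced samples, against 7952 and 8537 with skip2 alone (-10.46, SE 1.35, limma adjusted p = 2.16e-05). Mup7 stood at 7.36 and 83.4 in skip2 induced samples, against 17539 and 16948 with skip2 alone (-9.34, SE 1.24, adjusted p = 2.96e-05). Mup8 was listed at 0 in both skip2 induced samples, against 146 and 126 with skip2 alone. Mup20, the pheromone protein darcin, had the smallest difference of the 16, at 2688 and 2519 in skip2 induced samples, against 6937 and 5009 with skip2 alone (-1.18, limma adjusted p = 0.039). Induced replicate 1 was below replicate 2 in most of the family, as in Mup10, at 52.9 and 219.8 in skip2 induced samples, against 23908 and 23177 with skip2 alone.

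The promoters of Mup11 and Mup15 are shown because these genes had the 2 lowest differences, and to show how alike members of the family are. The runs are from RefSeq on GRCm38.p6, minus strand, chr4:60662346-60662645 for Mup11 and chr4:61439655-61439954 for Mup15, with 250 bases before and 50 after the start. Capitals mark CATTCC, the TEAD motif on the other strand, at base 143 of the Mup11 run and base 122 of the Mup15 run.
Mup11: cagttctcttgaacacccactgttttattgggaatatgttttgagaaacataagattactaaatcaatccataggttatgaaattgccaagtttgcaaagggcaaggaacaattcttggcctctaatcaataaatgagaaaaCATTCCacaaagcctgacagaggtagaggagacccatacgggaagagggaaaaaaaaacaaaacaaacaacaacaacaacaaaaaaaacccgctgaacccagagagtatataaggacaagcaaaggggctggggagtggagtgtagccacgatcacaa
Mup15: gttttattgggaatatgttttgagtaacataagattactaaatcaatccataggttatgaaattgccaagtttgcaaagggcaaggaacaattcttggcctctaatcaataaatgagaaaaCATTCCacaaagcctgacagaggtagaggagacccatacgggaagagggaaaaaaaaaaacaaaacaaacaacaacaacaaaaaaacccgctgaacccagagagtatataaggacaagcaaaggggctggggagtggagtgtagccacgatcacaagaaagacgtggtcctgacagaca
The runs were 97.5% identical over 281 aligned positions and shared an unbroken stretch of 154 bases. Among 11 urinary protein genes with a promoter in the table, all on chromosome 4, identity over the aligned part had a median of 94.6% and a range of 74.1% to 99.7%. Reads of such near copies can be assigned to the wrong member, so the split between members is uncertain, and the sum over the family is less exposed to this.

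Other genes with male-biased expression in mouse liver were lower as well. All 11 on that list, which includes Mup3, Mup20 and Mup21, were called lower, with a median of -4.47. Hsd3b5, a steroid dehydrogenase of male liver (chromosome 3, 98618634 to 98630252), stood at 0 and 0.596 in skip2 induced samples, against 139.9 and 141 with skip2 alone (-6.81, SE 0.50, limma adjusted p = 1.63e-08). The fatty acid hydroxylase gene Cyp4a12a stood at 1.38 and 1.79 in skip2 induced samples, against 128 and 146 with skip2 alone (-5.74, SE 0.51, adjusted p = 3.2e-07). Both were all but absent from the induced samples and even between the livers with skip2 alone. Cyp7b1, an oxysterol hydroxylase, stood at 5.52 and 3.57 in skip2 induced samples, against 138 and 152 with skip2 alone (-4.74, limma adjusted p = 2.96e-07). Of the female-biased list, 0 genes passed the filter; Cyp2a4, a steroid hydroxylase, stood at 4.6 and 7.15 in skip2 induced samples, against 0 and 0 with skip2 alone. The Y-linked gene Ddx3y was present in all 4 libraries, at 18.8 and 14.3 in skip2 induced samples, against 23.1 and 12.4 with skip2 alone.

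Periportal genes, urea production and glucose output were lower in part, where 8.42% of all genes tested were called lower. Of 16 periportal genes that passed the filter, 4 were lower and 0 higher, with a median of -1.40. Cyp2f2, the periportal cytochrome, stood at 12.4 and 59.6 in skip2 induced samples, against 651 and 823 with skip2 alone (-4.68, SE 0.91, limma adjusted p = 0.00141), with the induced replicates far apart but below both others. Hal, histidase, stood at 11.5 and 36.9 in skip2 induced samples, against 169 and 216 with skip2 alone (-3.14, limma adjusted p = 0.00173). Gls2, liver glutaminase, stood at 18.97 and 26.7 in skip2 induced samples, against 145 and 157 with skip2 alone (-2.69, adjusted p = 0.00736). Of 8 urea cycle genes, 3 were lower and 0 higher, with a median of -1.48. Otc, which makes citrulline, stood at 45.1 and 45.9 in skip2 induced samples, against 198 and 155 with skip2 alone (-1.92, limma adjusted p = 0.0269). Slc25a15, the mitochondrial ornithine carrier, stood at 58.5 and 71.0 in skip2 induced samples, against 170.2 and 165 with skip2 alone (-1.37, adjusted p = 0.00509). Cps1, the first enzyme of the cycle, was not called, at 1998 and 2560.3 in skip2 induced samples, against 3994 and 4238 with skip2 alone (-0.86, limma adjusted p = 0.416). G6pc, the phosphatase that releases glucose, stood at 28.04 and 20.8 in skip2 induced samples, against 139 and 209 with skip2 alone (-2.76, SE 0.56, limma adjusted p = 0.00219), and 2 of 6 genes of glucose production were lower and 0 higher. That count was 1 without skip2 induced replicate 1 and without either replicate of skip2 alone, and quantile normalization gave 1 lower and 1 higher. The periportal count was 1 without skip2 induced replicate 1 and 2 without skip2 alone replicate 2. Without any 1 of the 4 libraries the call of Otc was lost and 0 or 1 urea cycle genes were called.

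Enzymes that clear drugs and steroids were lower across families. Of 26 genes of cytochrome P450 families 1 to 3 that passed the filter, 17 were lower and 0 higher, with a median of -1.73. Cyp2c29 stood at 43.7 and 70.9 in skip2 induced samples, against 1062 and 1096 with skip2 alone (-4.25, limma adjusted p = 0.00191). Cyp2u1 stood at 0.919 and 2.38 in skip2 induced samples, against 31.2 and 56.3 with skip2 alone (-4.08, adjusted p = 0.000587). Among 31 conjugation enzymes 10 were lower and 2 higher, with a median of -0.87. Sult2a8, a bile acid sulfotransferase, stood at 3.68 and 5.36 in skip2 induced samples, against 223 and 210.2 with skip2 alone (-5.32, SE 0.38, limma adjusted p = 1.63e-08). The glucuronosyltransferase gene Ugt2b1 stood at 29.4 and 32.8 in skip2 induced samples, against 400.0 and 316 with skip2 alone (-3.48, adjusted p = 4.51e-06). Gstp1, a glutathione transferase, stood at 562 and 619 in skip2 induced samples, against 2986 and 3563 with skip2 alone (-2.47, limma adjusted p = 3.74e-05). Of the higher ones, 1 was Gstm2, a glutathione transferase, at 72.2 and 84.0 in skip2 induced samples, against 28.9 and 20.6 with skip2 alone (1.63, limma adjusted p = 0.00238). The other was Sult1a1, a phenol sulfotransferase, at 322 and 369 in skip2 induced samples, against 122.5 and 90.6 with skip2 alone (1.70, adjusted p = 0.000261). Carboxylesterases, hydrolases of lipids and drugs, had 6 of 12 lower and 0 higher, with a median of -1.83, and Ces3a stood at 58.7 and 71.1 in skip2 induced samples, against 1183 and 1451 with skip2 alone (-4.32, SE 0.49, limma adjusted p = 6.81e-06). The cytochrome count was 8 without skip2 induced replicate 1 and 11 without skip2 alone replicate 1, and members of these families have close paralogs that can exchange reads.

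In bile acid synthesis and transport 10 of 18 genes were lower and 0 higher, with a median of -1.12. Slco1a1, an uptake transporter of male liver, stood at 16.1 and 22.04 in skip2 induced samples, against 173 and 151 with skip2 alone (-3.04, SE 0.46, limma adjusted p = 0.000136). Cyp8b1, which steers synthesis to cholic acid, stood at 15.6 and 28.6 in skip2 induced samples, against 124 and 109.9 with skip2 alone (-2.41, adjusted p = 0.00348). Scp2, a sterol carrier of peroxisomes, stood at 449.6 and 518 in skip2 induced samples, against 2506 and 2561 with skip2 alone (-2.39, limma adjusted p = 5.67e-05). Cyp7a1, the rate-limiting enzyme of the main route, was not called, at 115 and 92.9 in skip2 induced samples, against 72.8 and 136 with skip2 alone (0.05, limma adjusted p = 0.966). Without skip2 induced replicate 1 the count was 3 lower.

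Abundant products of hepatocytes were lower in part, while the difference of albumin did not pass the test. Of the 25 hepatocyte function genes, all of which passed the filter, 13 were lower, 0 were higher and the median was -1.05. With quantile normalization 4 were lower and 3 higher, and the median was -0.00. Without skip2 induced replicate 1, 3 were lower, and without skip2 alone replicate 1, 7 were. Alb, the defining product of hepatocytes, was abundant in all 4 libraries. It stood at 21228 and 22753 in skip2 induced samples, against 50353 and 50193 with skip2 alone and was not called (-1.19, limma adjusted p = 0.143). Fabp1, the liver fatty acid binding protein, stood at 85.0 and 93.5 in skip2 induced samples, against 531 and 534 with skip2 alone (-2.56, SE 0.38, limma adjusted p = 0.000102). Ttr, the carrier of thyroxine, stood at 554 and 953 in skip2 induced samples, against 2718 and 3074 with skip2 alone (-1.99, adjusted p = 0.00125). The plasma protein genes Ahsg (0.32) and Trf (0.35) had positive differences that did not pass the test (limma adjusted p = 0.55 and 0.532). None of the 14 hepatocyte transcription factor genes that passed the filter was called by limma, with 1 at an unadjusted p under 0.05 and 1 called higher with voom. Their differences ran from -0.75 for Nr1h4 to 0.28 for Prox1, and Hnf4a stood at 369.9 and 469.5 in skip2 induced samples, against 466 and 519 with skip2 alone.

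Among Serpina genes, which encode inhibitors of serine proteases, 8 of 13 were lower and 1 higher, with a median of -1.49. Serpina1e, a form of alpha-1-antitrypsin, stood at 187 and 154 in skip2 induced samples, against 7238 and 6444 with skip2 alone (-5.33, SE 0.72, limma adjusted p = 3.77e-05). Serpina3k stood at 62.5 and 193 in skip2 induced samples, against 5345 and 5123 with skip2 alone (-5.56, SE 0.76, adjusted p = 3.91e-05). The higher member was Serpina7, the thyroxine-binding globulin, at 25.7 and 47.7 in skip2 induced samples, against 3.47 and 4.12 with skip2 alone (2.91, limma adjusted p = 0.00351). Of 14 apolipoprotein genes 8 were lower and 0 higher, with a median of -0.95. Apoa2 stood at 669 and 1004 in skip2 induced samples, against 2769 and 2879.6 with skip2 alone (-1.78, limma adjusted p = 0.00593). The apolipoprotein count was 1 lower and 2 higher with quantile normalization, 3 lower without skip2 induced replicate 1 and 5 without either replicate of skip2 alone. Coagulation and complement had 14 of 33 lower and 1 higher, with a median of -0.89, led by parts of the membrane attack complex. C8b stood at 31.3 and 46.8 in skip2 induced samples, against 234 and 240.1 with skip2 alone (-2.60, SE 0.33, limma adjusted p = 2.12e-05). C6 stood at 51.5 and 47.7 in skip2 induced samples, against 235 and 210.1 with skip2 alone (-2.14, adjusted p = 8.79e-05). The count of 14 was 6 without skip2 induced replicate 1, 7 without skip2 alone replicate 1, 9 without skip2 alone replicate 2, and 7 with quantile normalization or voom. The higher member was Kng2, a kininogen gene, at 154 and 152 in skip2 induced samples, against 90.1 and 71.8 with skip2 alone (0.92, limma adjusted p = 0.0216), a call lost without either skip2 induced replicate, without skip2 alone replicate 2 and with depth as a covariate.

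The acute-phase genes depended on which livers they were set against. Of 24 that passed the filter, 10 were lower and 1 higher against skip2 alone, with a median of -0.87, but 4 lower and 3 higher against the 2 wild type livers, with a median of -0.12. Over all genes the calls against wild type were 417 higher (6.33%) and 459 lower (6.96%). Saa2, a serum amyloid gene that rises in inflammation (chromosome 7, 46751790 to 46754313), stood at 3.68 and 4.77 in skip2 induced samples, against 3054 and 915 with skip2 alone and 3.4 and 78.2 in wild type liver. The livers with skip2 alone stood far above both other groups and apart from each other, and the difference was -8.33 (SE 1.019, limma adjusted p = 1.39e-05) from skip2 alone and -1.84 (adjusted p = 0.267) from wild type. Orm1, an orosomucoid gene, was low in the induced samples against both, at 14.7 and 22.04 in skip2 induced samples, against 768 and 492 with skip2 alone and 333 and 322 in wild type liver (-5.02 and -4.11, limma adjusted p = 1.39e-05 and 0.000121). Hpx, the heme carrier hemopexin, stood at 1557 and 1929 in skip2 induced samples, against 4633 and 3689 with skip2 alone and 1397 and 2088 in wild type liver, so the induced values fell within the wild type range. Its difference from skip2 alone was -1.25 (limma adjusted p = 0.0128), but 0.21 with quantile normalization. The 1 higher member was Cp, the copper carrier ceruloplasmin, at 1392 and 1333 in skip2 induced samples, against 602 and 594 with skip2 alone and 382 and 414 in wild type liver (1.19, SE 0.27, limma adjusted p = 0.00511). Of the acute-phase genes, 6 were lower without skip2 induced replicate 1 and 6 without skip2 alone replicate 1.

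**Figure D3:**
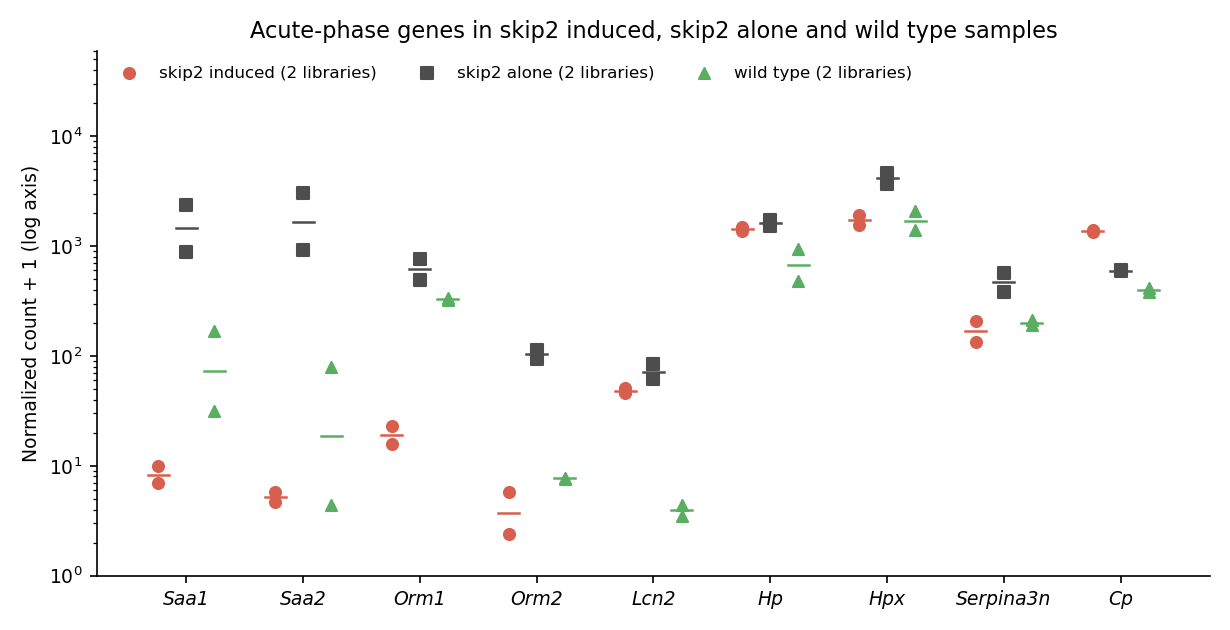
Normalized count + 1 of 9 acute-phase genes on a log axis in skip2 induced (circles), skip2 alone (squares) and wild type (triangles) libraries, 2 each, with the geometric mean of each group as a short line. Saa1 and Saa2 stand highest with skip2 alone, at 887 or more, and Cp is highest in skip2 induced samples.

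Genes of lipid metabolism and glycolysis were called in both directions, and genes of the respiratory chain were lower in part. Beside these counts, 6.52% of all genes tested were called higher and 8.42% lower, or 14.9% in either direction. Of 23 cholesterol synthesis genes 3 were higher and 2 lower. Srebf2, the factor that switches the pathway on, stood at 60.2 and 89.95 in skip2 induced samples, against 21.96 and 21.97 with skip2 alone (1.70, limma adjusted p = 0.000423). Mvd, an enzyme of the mevalonate steps, stood at 20.2 and 21.4 in skip2 induced samples, against 5.78 and 4.12 with skip2 alone (1.89, adjusted p = 0.00296). Fatty acid synthesis had 3 of 14 lower and 1 higher, Scd2, described above. Among the lower ones was the lipogenic factor gene Thrsp, at 29.9 and 17.3 in skip2 induced samples, against 243 and 461 with skip2 alone (-3.82, limma adjusted p = 0.0193), a call lost without any 1 of the 4 libraries. Fatty acid oxidation had 3 of 22 lower and 1 higher. Among 12 ubiquitous glycolysis genes, 2 were higher and 2 lower. Pkm, the pyruvate kinase of growing cells, stood at 35.9 and 45.9 in skip2 induced samples, against 21.96 and 13.7 with skip2 alone (1.18, limma adjusted p = 0.00854). Pgk1 stood at 135 and 119 in skip2 induced samples, against 252 and 192 with skip2 alone (-0.79, adjusted p = 0.0399). Without skip2 induced replicate 1, and without skip2 alone replicate 1, 0 genes of these 4 lists were called lower. Of 71 nuclear-encoded genes of the respiratory chain, 15 were lower and 0 higher, with a median of -0.82, and 62 had both induced values below both others. The shares over all genes tested were 8.42% called lower and 32.6% with both induced values below. Ndufb9, of complex I, stood at 13.99 and 19.4 in skip2 induced samples, against 65.3 and 58.2 with skip2 alone (-1.84, limma adjusted p = 0.00247). The count of 15 was 3 without skip2 induced replicate 1, 5 without skip2 alone replicate 1, 6 without skip2 alone replicate 2 and 9 without skip2 induced replicate 2. It was 1 with voom, 7 with quantile normalization and 8 with upper-quartile scaling. The 73 ribosomal protein genes had 0 calls by limma, with 3 at an unadjusted p under 0.05, and 25 called higher with voom. In iron and copper handling 2 of 22 genes were higher and 3 lower. Atp7b, the copper exporter of hepatocytes, was higher with Cp, at 47.8 and 42.3 in skip2 induced samples, against 21.96 and 19.2 with skip2 alone (1.09, limma adjusted p = 0.0304; lost without any 1 of the 4 libraries). The ferritin gene Ftl1 was lower, at 507 and 661 in skip2 induced samples, against 1218 and 1343 with skip2 alone (-1.14, adjusted p = 0.00708). Alas2, the heme synthesis enzyme of red cells, was lower too, at 13.3 and 17.2 in skip2 induced samples, against 124 and 131 with skip2 alone (-2.998, limma adjusted p = 0.000129). The red cell markers summed to 51.9 and 164 in skip2 induced samples, against 425 and 308 with skip2 alone, and their part in its value was not tested.

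**Figure D4:**
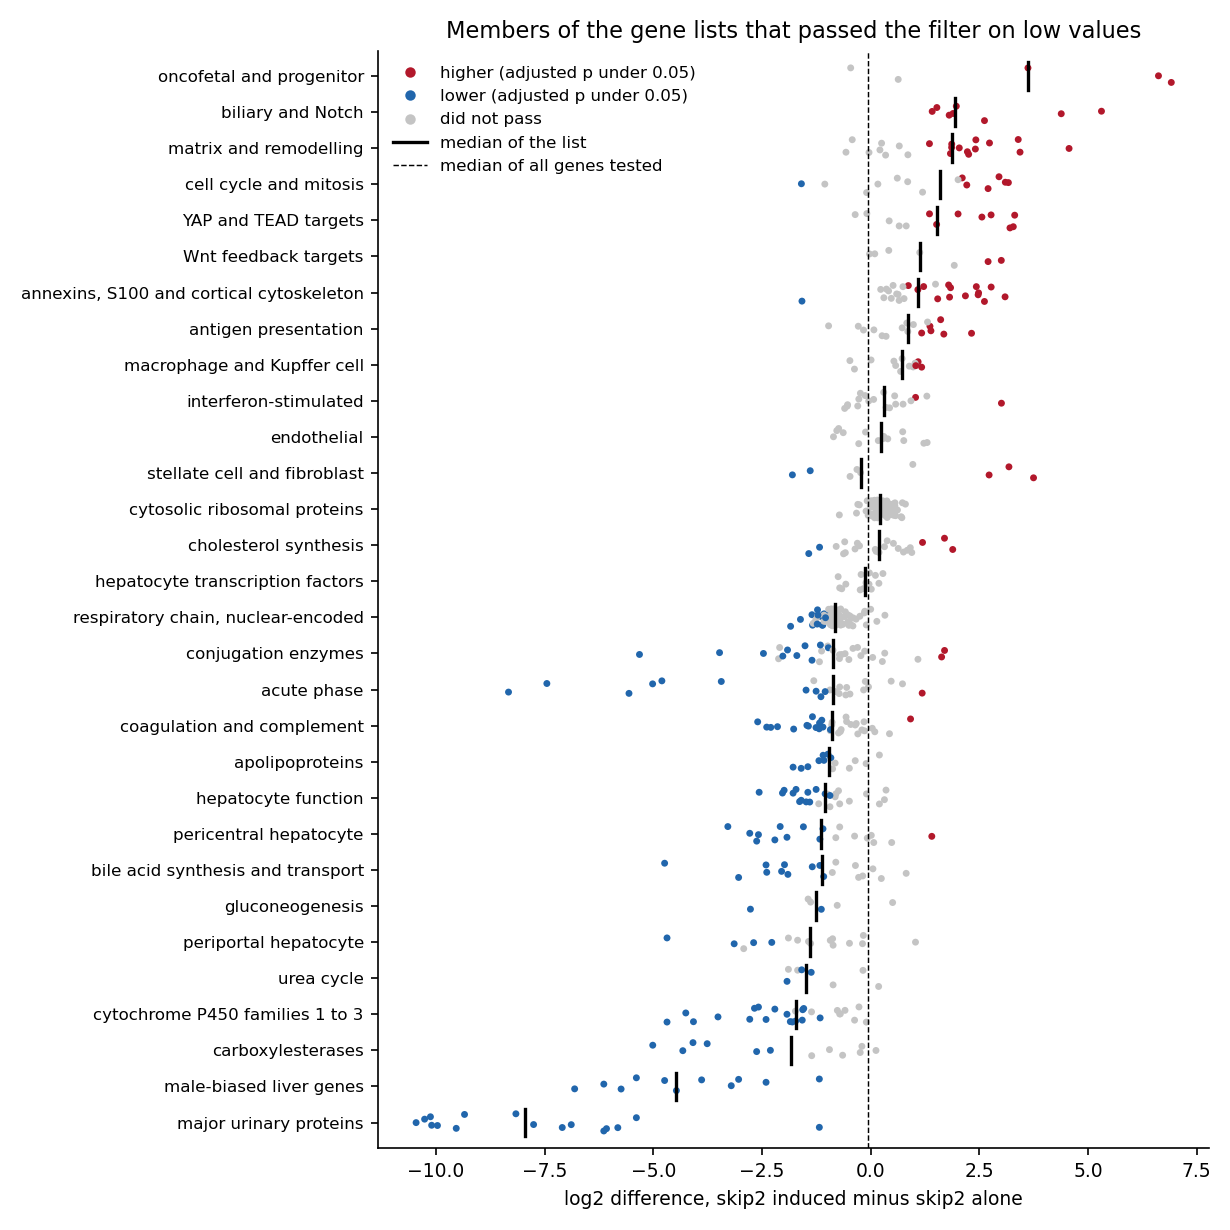
Each point is a gene of the named list that passed the filter, at its log2 difference, skip2 induced minus skip2 alone (red called higher, blue called lower, grey not called), with the list's median as a bar and the median of all genes as a dashed line at -0.06. Lists run from oncofetal genes at the top, with a median of 3.62 over the 5 of 16 that passed the filter (1.12 over all 16 with no filter), to major urinary proteins at the bottom, at -7.96.

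The skip1 isoform has its own livers without the induced condition, so the same difference could be taken there with no library in common, over 5 skip1 induced samples and 3 livers with skip1 alone. In that contrast 432 genes were higher (6.55%) and 539 lower (8.18%). Of the 985 genes called with skip2, 218 were also called higher and 287 called lower with skip1, together with 1 gene called in opposite directions and 479 called with skip2 only. The shared calls were 22.1% and 29.1% of the skip2 calls and 22.5% and 29.6% of the skip1 calls. Over all 6592 genes, 4708 had the same sign in both contrasts, with a Pearson correlation of 0.723 and a Spearman correlation of 0.602 across genes, which are not independent replicates.

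The gene called in opposite directions was Igfbp2. It stood at 157 and 182 in skip2 induced samples, against 32.1 and 40.9 with skip2 alone, and at 33.2, 29.5, 26.7, 11.1 and 16.4 in skip1 induced samples, against 112, 87.5 and 54.8 with skip1 alone. The skip2 induced samples thus lay above their livers and the skip1 induced samples below theirs, and the skip2 difference minus the skip1 difference was 4.04 (SE 0.56, limma adjusted p = 0.00138). That test called 11 genes in all (0.167%), 2 higher (0.0303%) and 9 lower (0.137%) with skip2 than with skip1, and 662 had an unadjusted p under 0.05. Of the 9, Hsd3b5 and Cyp4a12a are on the male-biased list. Hsd3b5 stood at 22.6, 26.8, 5.57, 13.5 and 22.4 in skip1 induced samples, against 92.1, 81.7 and 131 with skip1 alone, so its loss was partial there (difference of differences -4.25, SE 0.61, limma adjusted p = 0.00138). Cyp4a12a stood at 47.3, 68.5, 29.7, 81.2 and 58.6 in skip1 induced samples, against 136, 110.4 and 181 with skip1 alone (-4.39, limma adjusted p = 0.00138). For Sult2a8 the values were 80.7, 103, 40.0, 37.0 and 46.9 in skip1 induced samples, against 132, 158 and 179 with skip1 alone (-3.88, limma adjusted p = 0.000339). Ces3a (-3.14) and the pseudogene Adh6-ps1 (-3.42) were called the same way. Saa2 (-6.98) and Saa1 (-6.08) were called too, with Saa2 at 3054 and 915 with skip2 alone and at 146, 21.9 and 21.3 with skip1 alone. In the induced samples labelled dN90, Hsd3b5 stood at 0, 0, 0 and 0 and Cyp4a12a at 2.36, 0, 0 and 1.99. Sult2a8 stood there at 1.57, 2.04, 2.51 and 1.99, and Ces3a at 25.8, 15.5, 11.6 and 5.10. Low values of Hsd3b5, Cyp4a12a, Sult2a8 and Ces3a in induced samples were thus not particular to skip2. Glul had differences of opposite sign, -2.08 with skip2 and 1.17 with skip1, but the difference of -3.25 did not pass (limma adjusted p = 0.135). Ctnnb1 was higher with both isoforms, by 1.497 with skip2 and 2.45 with skip1, and the difference of -0.95 did not pass either (limma adjusted p = 0.386). The count of 11 was 150 without skip2 induced replicate 2, 19 without skip1 induced replicate 3, and 7 without skip1 induced replicate 1. It was 4 or 5 without skip2 induced replicate 1, without either replicate of skip2 alone, and without skip1 alone replicate 2 or 3.

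**Figure D5:**
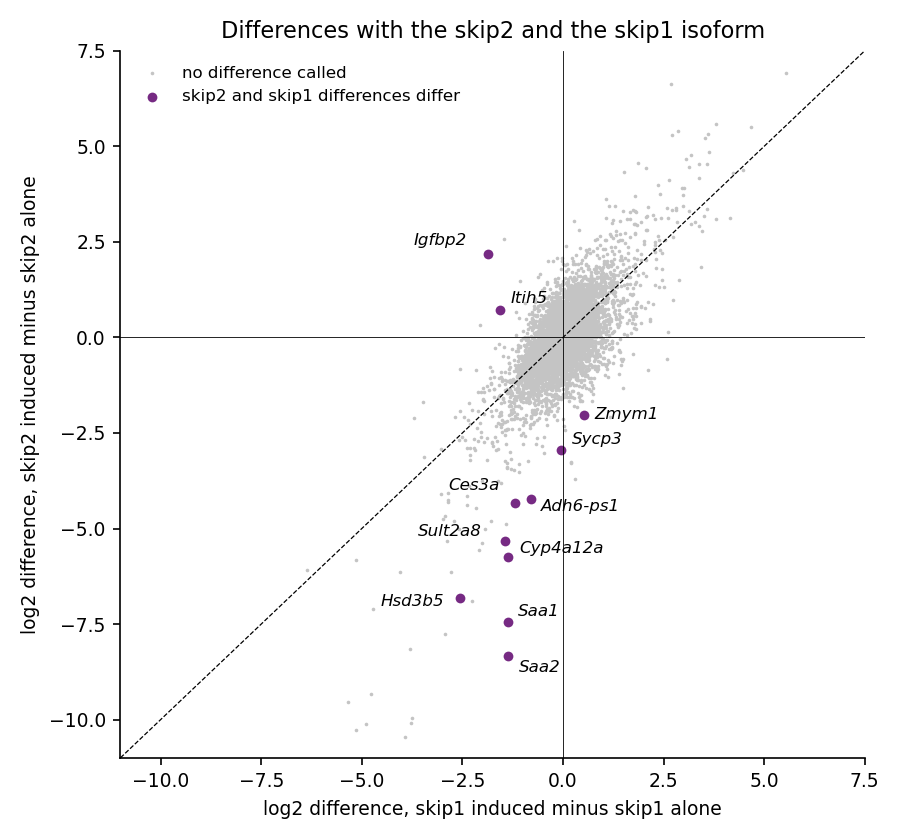
Each point is a gene, with its log2 difference between induced samples and livers with the isoform alone for skip1 on the horizontal axis and for skip2 on the vertical axis, and the dashed line marks equal differences. The 11 purple genes had differences that differed between the isoforms, and Igfbp2 lies at the upper left, higher with skip2 and lower with skip1.

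In most genes called lower, skip2 induced replicate 1 stood below replicate 2. Over all genes the median distance between replicates was 0.307 in skip2 induced samples and 0.330 with skip2 alone, and 523 (7.93%) and 572 genes (8.68%) were more than 1 apart. Of the 555 genes called lower, induced replicate 1 was below replicate 2 in 436 and above it in 116. The 430 called higher were split 224 above and 206 below, and the split over all genes tested was not counted. The normalized values summed to 428990 in induced replicate 1 and 485745 in replicate 2, and the part of this in the split was not tested. With skip2 alone, replicate 1 was below replicate 2 in 261 and above it in 294 of the 555. Cyp2f2, at 12.4 and 59.6 in induced replicates 1 and 2, and Mup3, at 71.0 and 236, show the pattern, while Cyp7b1, at 5.52 and 3.57, does not.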

How the data were processed

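The deposited table holds the authors' normalized counts per gene, a non-negative signal, for 14086 genes in 18 libraries; FastQC, STAR, RSEM and DESeq2 and the mm10 build were used per the submitters' processing notes, with versions and settings not given in the sources used here. Close to 60% of nonzero values fell on whole multiples (tolerance 0.001) of 1 step per library, and the column sum over that step gave the estimated reads, 361772 to 933146 per library, which limit the precision of low genes. The second deposited table, z-scores of genes that the authors selected, gives no fold and was not used; no per-sample column was left without a sample.

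Groups came from the source labels. The 6592 genes that averaged at least 10 were tested as log2(value + 1) with limma 3.58.1 (R 4.3.3), using 1 coefficient for each of 6 groups, two-sided p-values, a prior with a trend, and Benjamini-Hochberg adjustment over all of them. The same fit gave the difference between the skip2 and the skip1 differences and the contrast with wild type, which was added after seeing the data. The code was tested on simulated data. Genes were named by a rule: in each direction, at most 12 called genes of largest difference whose groups did not overlap and whose higher group averaged 100 or more; from each of 46 lists, at most 4 called members; at most 8 genes by the difference between isoforms; and a few fixed names. Genes outside it, among them Acta2, Ahsg, Aurka, Clec4f, Cps1, Cyp2a4, Cyp2e1, Cyp7a1, Ddx3y, Epcam, Hnf4a, Igf2, Itih5, Kng2, Krt7, Lrat, Mup20, Nr1h4, Prox1, Rn45s, S100a1, Sox9, Sult1a1, Sycp3, Trf and Zmym1, were chosen after their values were seen. The comparison, its members and the lists were chosen with earlier results of these data known, so none is independent evidence.

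Alternatives were another pseudocount, filter, scaling, prior, reference or set of libraries, array weights, depth as a covariate, voom on estimated reads, and leaving out each library. Coordinates are from GENCODE M21 on mm10, matched by symbol for 98.3% of genes. Promoters are RefSeq on GRCm38.p6, matched for 5228 of the 6592 genes, and were read with Python 3.11.15 and aligned with Biopython 1.88. Figures were drawn with matplotlib 3.10.9.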

Additional observations from a re-analysis of the deposited data

Results flagged for a closer look

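The difference between skip2 induced samples and skip2 alone differed from that between skip1 induced samples and skip1 alone in 11 genes by the limma test of the difference itself. On the log2 scale, skip2 minus skip1, it was -6.98 for Saa2 (limma adjusted p = 0.0201) and -6.08 for Saa1 (0.0354), serum amyloid genes of the acute phase. Among liver enzyme genes it was -4.39 for Cyp4a12a (0.00138), -4.25 for Hsd3b5 (0.00138), -3.88 for Sult2a8 (0.000339), -3.14 for Ces3a (0.0354) and -3.42 for the pseudogene Adh6-ps1 (0.0171). It was 4.04 for Igfbp2 (limma adjusted p = 0.00138), -2.90 for Sycp3 (0.0477), a gene of the meiotic chromosome axis, and -2.54 for the zinc finger gene Zmym1 (0.0477). Saa2 was low in both sets of induced samples, at 3.68 and 4.77 with skip2 and 27.9, 24.1, 11.2, 15.4 and 7.46 with skip1. It stood highest in the livers with skip2 alone, at 3054 and 915, against 146, 21.9 and 21.3 with skip1 alone and 3.40 and 78.2 in wild type liver.

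For Itih5, which encodes a hyaluronan-binding protein, the skip2 difference minus the skip1 difference was 2.30 (limma adjusted p = 0.0477), although the gene was not called with skip2. Itih5 stood at 29.9 and 38.7 in skip2 induced samples, against 19.7 and 20.6 with skip2 alone, and at 7.53, 6.48, 5.57, 13.5 and 10.6 in skip1 induced samples, against 29.6, 28.8 and 22.4 with skip1 alone. Sycp3 stood at 1.38 and 4.17 in skip2 induced samples, against 28.9 and 23.3 with skip2 alone, and at 22.6, 12.03, 15.8, 15.3 and 7.45 in skip1 induced samples, against 13.2, 11.5 and 19.2 with skip1 alone. The skip2 groups did not overlap in either gene, while those of skip1 did not overlap in Itih5 and overlapped in Sycp3. In the induced samples labelled dN90, Itih5 stood at 35.4, 36.7, 41.4 and 40.7 and Sycp3 at 5.51, 10.2, 11.3 and 10.9. The Itih5 values of skip2 induced samples were thus not particular to skip2, and those of skip1 induced samples lay below every other library.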

How the results depend on the processing

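The 985 calls, 430 higher and 555 lower, ranged from 346 to 788 without 1 library of the 4, the higher ones from 187 to 299 and the lower ones from 159 to 530. Of the 985, 340 were kept without skip2 induced replicate 1. Calls numbered 526, 114 higher, with a mean of at least 50, and 1623, 1374 higher and 249 lower, with voom; 341 were lower with quantile normalization and 864 against all 7 libraries without the induced condition. The share of calls that were higher was 43.7%, 57.5% with upper-quartile scaling, 56.1% with quantile normalization, 54.0% with no filter, 84.7% with voom and 21.7% with a mean of at least 50. The cause was not tested, except that a stricter filter tests fewer genes. The 11 calls that differed between isoforms, 2 higher and 9 lower, numbered 21 (4 and 17) with a pseudocount of 5, 17 (4 higher) with quantile normalization, 5 (1 and 4) with no trend in the prior, 24 (5 and 19) with array weights and 20 (1 and 19) with only the skip1 and skip2 libraries; 1 was higher with no filter and 4 with depth as a covariate. Without 1 library they ranged from 4 to 150, the higher ones from 1 to 4 and the lower ones from 3 to 147.

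Of 138 called named genes, none changed sign except Hpx, 0.21 with quantile normalization and 0.021 against wild type, and Elovl6, 0.37 against wild type. Yap1, which was not called, was 0.15 with upper-quartile scaling, 0.082 with quantile normalization, 0.014 with depth as a covariate, 0.56 with voom, 0.079 against wild type and between -0.18 and 0.14 without 1 library. Without skip2 induced replicate 1, 50 named genes lost their call, with a median of 94.0% of the difference kept. No paired analysis was possible because replicates carry numbers in accession order only, which form no pairs. Low genes are limited by depth and by 2 libraries a group.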

Other observations

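The gene groups not described above are given here, beside shares over all genes tested of 6.52% called higher and 8.42% called lower. Of 6 immediate early and stress genes that passed the filter, 1 was higher and 0 lower, with a median of 0.01; it was Jun, a part of the AP-1 factor, at 22.5 and 20.3 in skip2 induced samples, against 1.16 and 2.75 with skip2 alone (2.98, SE 0.65, limma adjusted p = 0.00385). Of 21 NRF2 antioxidant genes, 1 was higher, Gstm2, and 2 were lower. Cat, catalase, stood at 228 and 317 in skip2 induced samples, against 691 and 769 with skip2 alone (-1.44, limma adjusted p = 0.00502). Gsr, glutathione reductase, stood at 28.04 and 20.8 in skip2 induced samples, against 42.8 and 46.7 with skip2 alone (-0.86, limma adjusted p = 0.0392), a call lost without any 1 of the 4 libraries. Of 5 glycolysis isoenzymes of adult liver, 0 were called by limma or with voom, with 2 lower at an unadjusted p under 0.05 and a median of -0.92 that was 0.20 with quantile normalization. In the list of mitochondrial genome and nuclear RNAs, the 2 genes that the table holds both passed the filter and 1 was higher, Neat1 (2.14, limma adjusted p = 0.0172), which was not called against wild type liver (0.59, adjusted p = 0.591). That call was lost without skip2 induced replicate 1 and without skip2 alone replicate 1.

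B cell markers summed to 1.85 and 5.31 in skip2 induced samples, against 2.31 and 2.79 with skip2 alone. Neutrophil markers summed to 6.67 and 6.66 in skip2 induced samples, against 2.37 and 2.78 with skip2 alone. Of the genes called higher, 7 were listed at 0 in both livers with skip2 alone, and of those called lower 3 were listed at 0 in both skip2 induced samples.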
